A study of Mus musculus with 8 samples.

Results

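The mitochondrial protein import machinery was examined as a set of 29 genes among the 17097 genes measured on 8 Affymetrix mouse expression arrays. Its members were all genes whose annotated symbol named a Tomm or Timm subunit with a number, Samm50, Pam16, Dnajc19, Grpel1, Grpel2, Pmpca or Pmpcb, and each was read by whichever of its probe sets had the highest mean. The arrays held total RNA of murine acute myeloid leukaemia (AML) cell lines. Per the labels, cells of the Trib1 hi group (4 arrays) expressed Hoxa9 and Trib1, and cells of the Trib1 null group (4 arrays) Hoxa9 without Trib1, which the signals of both genes did not bear out. Hoxa9 is a homeobox transcription factor and Trib1 a pseudokinase that brings substrates to a ubiquitin ligase. The AML had arisen in mice homozygous for a Trib1 knock-out, and cells of both groups grew, untreated, in IMDM with fetal bovine serum and IL-3. The labels do not give the way Trib1 and Hoxa9 were introduced, whether the lines were clones, or whether a group's arrays came from separate cultures. The p-values therefore measure the spread between these arrays, which may be technical.

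Nearly all mitochondrial proteins are encoded in the nucleus, made in the cytosol and imported. The TOM complex of the outer membrane recognises and admits them. From there, proteins with a cleavable presequence pass through the TIM23 complex of the inner membrane, are pulled into the matrix by a motor built on mitochondrial Hsp70, and are trimmed by the mitochondrial processing peptidase. Carrier proteins are guided by small TIM chaperones to the TIM22 complex, and beta-barrel proteins are inserted into the outer membrane by the SAM complex. In leukaemic myeloid cells, as in other dividing cells, import supplies the respiratory chain, the mitochondrial ribosome and the enzymes of the matrix.

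The groups went against their labels at the probe sets of Trib1 and Hoxa9. The Trib1 signal was 7.13, 7.13, 122 and 5.92 in the group labelled Trib1 hi, against 304, 223, 212 and 206 in the group labelled Trib1 null, all under 500. Hoxa9, given to cells of either group by the labels, averaged 107 ± 189 on arrays labelled Trib1 hi, all under 500, and 1024 ± 43.5 on arrays labelled Trib1 null (SD, n = 4 each). Without Trib1 hi 3 the Trib1 hi mean was 12.9. Whether these probe sets detect the introduced genes, and whether the labels of the groups were exchanged, was not tested. Group names here are those of the labels, and every direction given would turn if they were exchanged. Xist, the RNA of the inactive X chromosome, averaged 29.7 ± 48.0 on arrays labelled Trib1 hi (5.68 without Trib1 hi 3) and 8907 ± 684 on arrays labelled Trib1 null (SD, n = 4 each). One array stood apart: the median signal over all probe sets was 68.3 on Trib1 hi 3 and 3.71 to 9.52 on the other 7 arrays. The groups differed in distribution as well. The 75th percentile was 17.4, 15.5 and 96.0 on Trib1 hi 1, 2 and 4 and 222 to 384 on arrays labelled Trib1 null. At the 95th percentile the same arrays read 4856, 4942 and 4682, against 3958 to 4440. Trib1 hi 3 read 422 and 3724. The part of this in the members' calls was not tested. Of 10 myeloid marker genes, 5 exceeded 500 on all arrays, and the summed signal of all 10 was 37660.3 to 51497 on arrays labelled Trib1 hi and 34341 to 40111 on arrays labelled Trib1 null. Single myeloid markers differed widely between the groups. Those of immature cells were higher on arrays labelled Trib1 hi: Mpo read 4087 to 5766 there and 2.20 to 3.97 on arrays labelled Trib1 null, Cd34 2812 to 3788 there and 4.78 to 85.1 on arrays labelled Trib1 null, and Elane 3566 to 5005 there and 711 to 1057 on arrays labelled Trib1 null. Itgam, a marker of mature myeloid cells, read 1527 to 1707 on arrays labelled Trib1 hi and 4662 to 5407 on arrays labelled Trib1 null; the part of this in the import genes' differences was not tested. No listed marker of T cells, B cells, erythroid cells, fibroblasts or epithelium exceeded 500 on any array, and of 3 endothelial markers only Pecam1 did, which myeloid cells also express. In RNA of whole cultures, fewer cells of a type and less RNA per cell cannot be told apart.

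The start-site sequences of 4 members that rose on arrays labelled Trib1 hi are shown because each holds a short motif of a factor known to bind promoters of mitochondrial genes. They come from RefSeq (mouse GRCm38.p6, 250 bases before to 50 after the annotated start, 5′ to 3′ on the gene's strand, the first window listed for each gene) and were matched by symbol for 25 of the 29 members; Timm21, Grpel2, Tomm7 and Tomm40l had no entry in the table used here. Capitals mark the motif on either strand: the core AAGATGGCG of the YY1 motif in Timm50 (chr7:28311997-28312296, minus strand), the ETS motif CCGGAAG of GABP in Timm23 (chr14:32201842-32202141, minus strand), the E-box CACGTG in Timm9 (chr12:71136626-71136925, minus strand), and the core GCGCANGCG of the NRF1 motif in Pam16 (chr16:4624897-4625196, minus strand).
Timm50: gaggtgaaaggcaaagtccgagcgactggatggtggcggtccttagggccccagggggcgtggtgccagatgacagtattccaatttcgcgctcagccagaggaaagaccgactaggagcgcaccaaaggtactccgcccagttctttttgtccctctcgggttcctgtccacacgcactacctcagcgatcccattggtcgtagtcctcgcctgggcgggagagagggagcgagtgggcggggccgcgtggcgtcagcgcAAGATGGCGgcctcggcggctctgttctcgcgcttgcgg
Timm23: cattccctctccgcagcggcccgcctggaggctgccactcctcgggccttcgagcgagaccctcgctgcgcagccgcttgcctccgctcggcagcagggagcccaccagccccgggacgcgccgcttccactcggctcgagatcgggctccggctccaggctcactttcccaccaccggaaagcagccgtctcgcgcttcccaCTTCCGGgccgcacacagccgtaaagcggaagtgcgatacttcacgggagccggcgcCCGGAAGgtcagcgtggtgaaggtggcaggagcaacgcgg
Timm9: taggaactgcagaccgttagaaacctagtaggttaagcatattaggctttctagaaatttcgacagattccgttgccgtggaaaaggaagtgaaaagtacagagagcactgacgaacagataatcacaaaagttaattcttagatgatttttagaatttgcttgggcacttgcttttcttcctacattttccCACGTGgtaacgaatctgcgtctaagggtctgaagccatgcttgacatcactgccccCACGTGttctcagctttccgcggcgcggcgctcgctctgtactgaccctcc
Pam16: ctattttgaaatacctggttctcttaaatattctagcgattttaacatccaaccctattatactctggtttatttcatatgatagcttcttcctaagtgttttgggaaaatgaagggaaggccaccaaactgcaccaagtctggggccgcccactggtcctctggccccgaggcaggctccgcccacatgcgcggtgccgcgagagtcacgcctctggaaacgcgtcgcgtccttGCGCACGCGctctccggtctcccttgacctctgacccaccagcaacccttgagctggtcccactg

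The ETS motif was present in 12 of the 25 members' windows, compared with 9.12% of the windows of all 27025 genes in the table and 17.2% of those of 9887 tested genes. By response it was found in 4 of 11 members that rose (Grpel1, Pmpca, Timm10 and Timm23), in 1 of 2 that fell (Timm29) and in 7 of the other 12. The E-box was in 4 windows (Timm9, Timm10, Tomm20 and Tomm20l), compared with 7.24% of all genes and 9.74% of tested genes. The NRF1 motif was in 3 (Pam16, Timm8b and Tomm20; 6.47% of all and 12.7% of tested genes), and the YY1 motif in 1 (1.49% and 3.08%). The motif TGATGCAA, used here for ATF4, the transcription factor of the integrated stress response, was in 0 of the 25 (0.929% and 0.678%). Both strands were searched, and overlapping matches were marked alike. A motif match is a description of the letters and not evidence of binding.

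Of the 28 members that passed the filter for testing, 12 were higher and 3 lower on arrays labelled Trib1 hi at an adjusted p under 0.05 (limma, Benjamini-Hochberg over all 12250 tested genes), and 13 did not pass. Of these, Tomm20l passed the filter only through Trib1 hi 3, where it read 74.8, against at most 3.80 on the other arrays. Among all tested genes 11.1% were called higher and 19.7% lower, so that the members' share of higher calls, 42.9%, lay above the background and their share of lower calls, 10.7%, below it. The members are mostly bright: 25 of 29 exceeded 500 on all arrays, and among genes with a mean signal over 500 the background was 24.2% higher and 31.1% lower. The median log2 difference, Trib1 hi minus Trib1 null, was 0.29 over the members and 0.04 over all tested genes. Setting all arrays to equal medians, which shifts each array by one amount and Trib1 hi 3 the most, moved both, to -0.44 and -0.69, which turned the sign for 19 members and by its construction left the distance between them at 0.25. That distance depended on single arrays: it was 0.62 without Trib1 hi 3, 0.15 without Trib1 hi 1 or Trib1 hi 4, and 0.095 without Trib1 null 1. The array medians ranged from 3.71 to 68.3, under the 500 that 25 of the 29 members exceeded on all arrays. Signs below are those of the deposited scaling.

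Trib1 hi 3 was the lowest of the Trib1 hi arrays for 20 of the 29 members and the highest for 6. Without it, 18 members were called higher and 3 lower (background 17.2% and 30.8%). After quantile normalization, which gives all arrays one distribution, 19 were called higher and 6 lower (background 27.4% and 27.3%). All 12 members called higher and 2 of the 3 called lower on the deposited values were among these. On the deposited values, 13 members had their lowest Trib1 hi array above their highest Trib1 null array and 3 the reverse (background 13.5% and 15.8%).

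**Figure D1:**
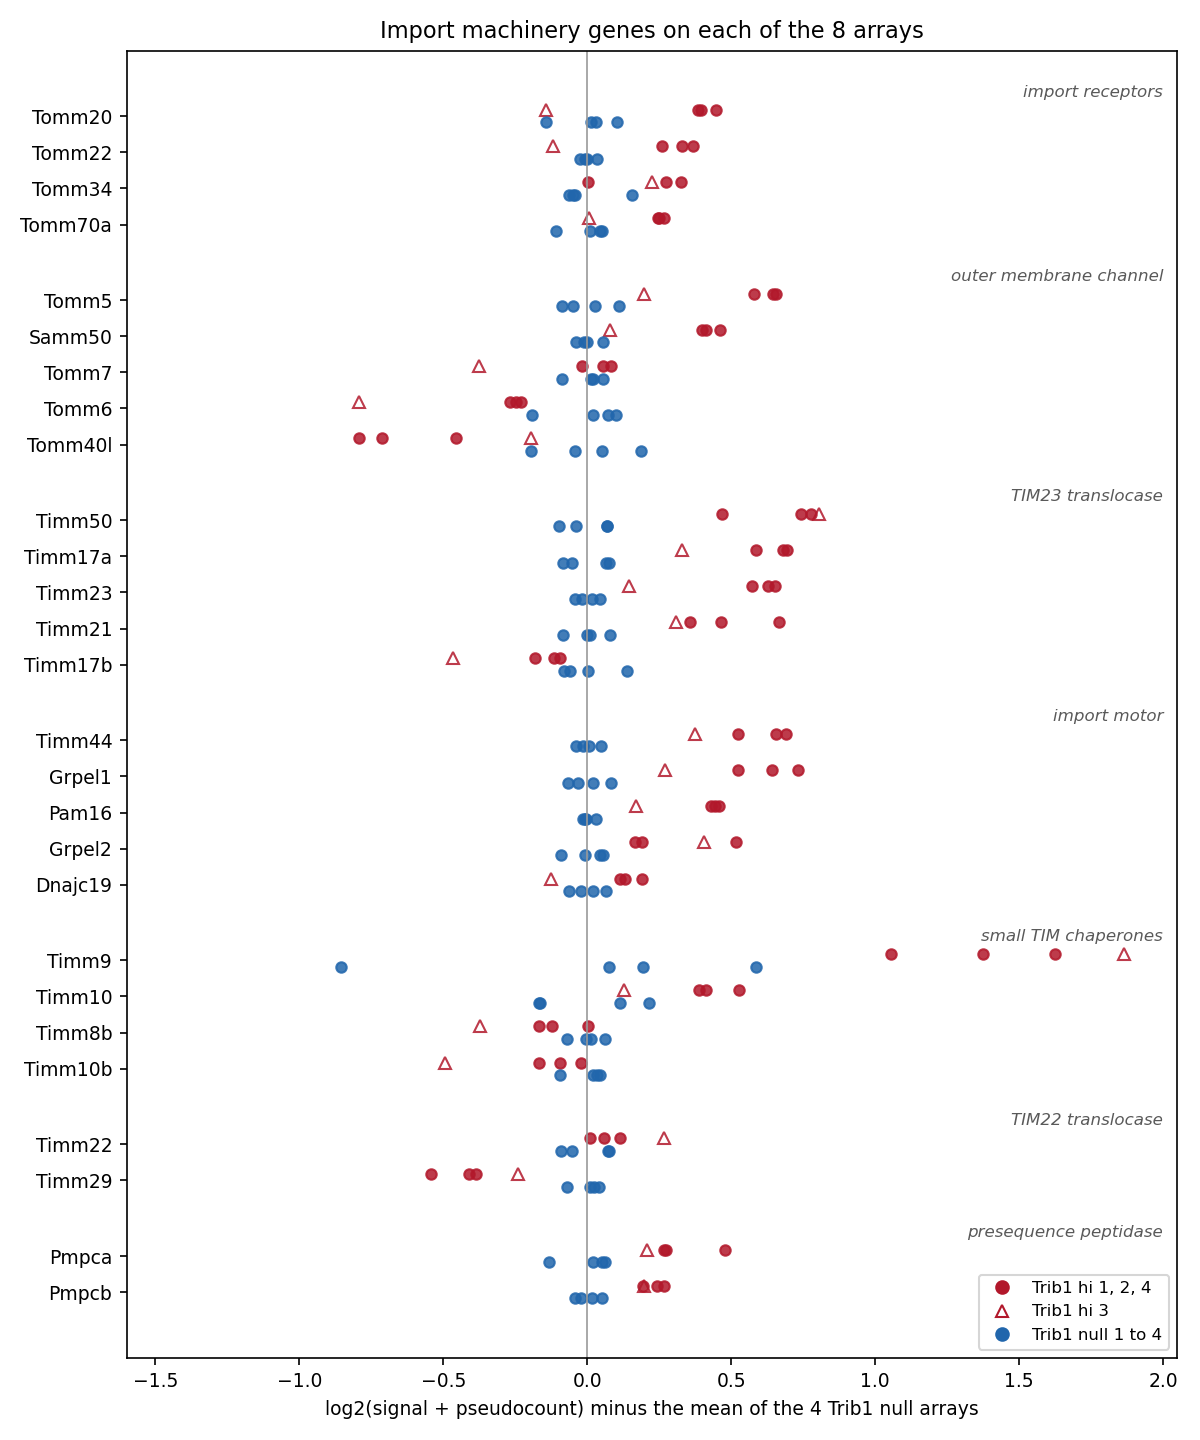
Signal of 27 import genes on each array, as log2(signal + pseudocount) minus the mean of the Trib1 null arrays, grouped by role; red points are Trib1 hi arrays, with Trib1 hi 3 as an open triangle, and blue points Trib1 null arrays. On the deposited scaling most TIM23 and motor genes lie to the right of all blue points, and setting arrays to equal medians would shift each array's points by one amount, Trib1 hi 3 the most; Tomm20l and Timm8a2, both dim, are not drawn.

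**Figure D2:**
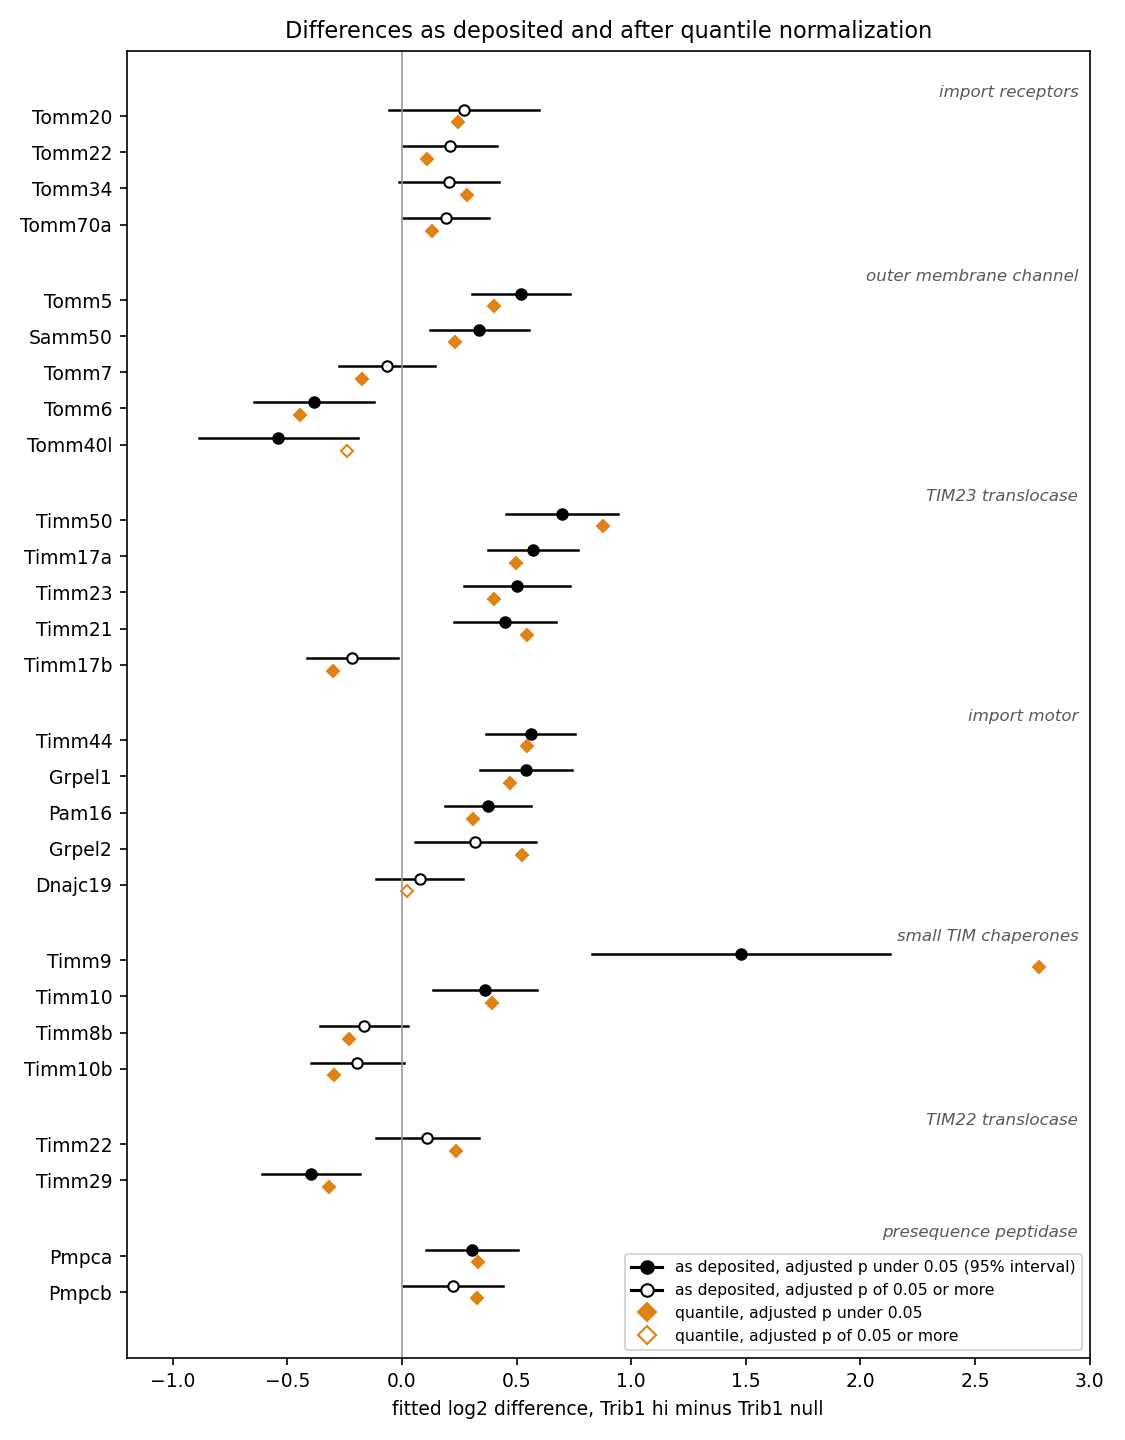
Fitted log2 difference, Trib1 hi minus Trib1 null, for the same 27 genes: black circles with 95% intervals are the deposited values and orange diamonds the quantile-normalized values, filled where the adjusted p is under 0.05. Both scalings give every gene drawn the same sign, which equal array medians would turn for the higher genes other than Timm9; Tomm40l is filled only on the deposited values.

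The TIM23 translocase had 4 of its 5 members higher on arrays labelled Trib1 hi and none lower, with a median log2 difference of 0.50. Counts by role, here and below, stand beside 11.1% higher and 19.7% lower among all tested genes. Among genes with a mean signal over 500 these shares were 24.2% and 31.1%. Timm50, the receptor that takes presequences from the TOM complex on the intermembrane side, read 1239, 1498, 1565 and 1536 on arrays labelled Trib1 hi, against 939, 835, 871 and 938 on arrays labelled Trib1 null. The groups did not overlap, and the fold was 1.62 (log2 difference 0.70 ± 0.12 SE, limma adjusted p = 2.06e-05). Averaging its 2 probe sets, the other of which read at most 51.0, ended this call (adjusted p = 0.579). Timm17a, one of 2 alternative subunits that line the channel, read 4359, 4399, 3418 and 4089.8 on arrays labelled Trib1 hi and 2623, 2869, 2844 and 2565 on arrays labelled Trib1 null. Every Trib1 hi array was above every Trib1 null array, by 1.49-fold in the geometric means (limma adjusted p = 1.37e-05). Timm23, the core subunit, read 11103, 10916, 7805 and 10497 on arrays labelled Trib1 hi and 6973, 7133, 7277 and 6854 on arrays labelled Trib1 null. It was 1.41-fold higher without overlap, although Trib1 hi 3 came close to the Trib1 null values (limma adjusted p = 0.000712). Timm21, which in yeast links TIM23 to the TOM complex and to the respiratory chain, averaged 1649.8 ± 188 on arrays labelled Trib1 hi and 1203 ± 56.0 on arrays labelled Trib1 null (SD, n = 4 each), 1.37-fold higher without overlap (limma adjusted p = 0.00157).

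Timm17b, the alternative to Timm17a, did not follow the rest of the complex. It read 3828, 3888, 3001 and 3657 on arrays labelled Trib1 hi, against 3985, 4568, 3924 and 4161 on arrays labelled Trib1 null, groups that did not overlap, with a log2 difference of -0.22 (95% interval -0.41 to -0.02) that missed the threshold (limma adjusted p = 0.0962). After quantile normalization it was called lower (-0.30, limma adjusted p = 1.36e-05), and its second probe set, which read 954, 967, 1067 and 1082 on arrays labelled Trib1 hi and 1406, 1456, 1420.2 and 1303 on arrays labelled Trib1 null, was lower on the deposited values as well (-0.46, adjusted p = 0.0049). Within each array the log2 ratio of the Timm17a to the Timm17b signal was 0.19, 0.18, 0.19 and 0.16 on arrays labelled Trib1 hi and -0.60, -0.67, -0.46 and -0.70 on arrays labelled Trib1 null. The 2 groups of ratios were far apart and differed by 0.79 on the log2 scale. The exact two-sided permutation p was 0.0286, the smallest that 70 splits of the arrays allow, and 0.0571 after adjustment over 2 pairs of alternative subunits, a choice made with their values in view. The groups were already separate for both genes, in opposite directions. That fixed this p in advance, and it adds nothing to the values of the 2 genes. The ratio compares groups, not the amounts of the 2 transcripts, since probe sets differ in brightness. The Timm17b probe set in the ratio is open to cross-hybridisation by its name, and the second Timm17b probe set is not. Timm17b lies on the X chromosome, where 21.8% of 362 tested genes were called lower and 7.18% higher on the deposited values (33.4% and 21.8% after quantile normalization), and where the groups differ in Xist; the part of either in the Timm17b difference was not tested.

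**Figure D3:**
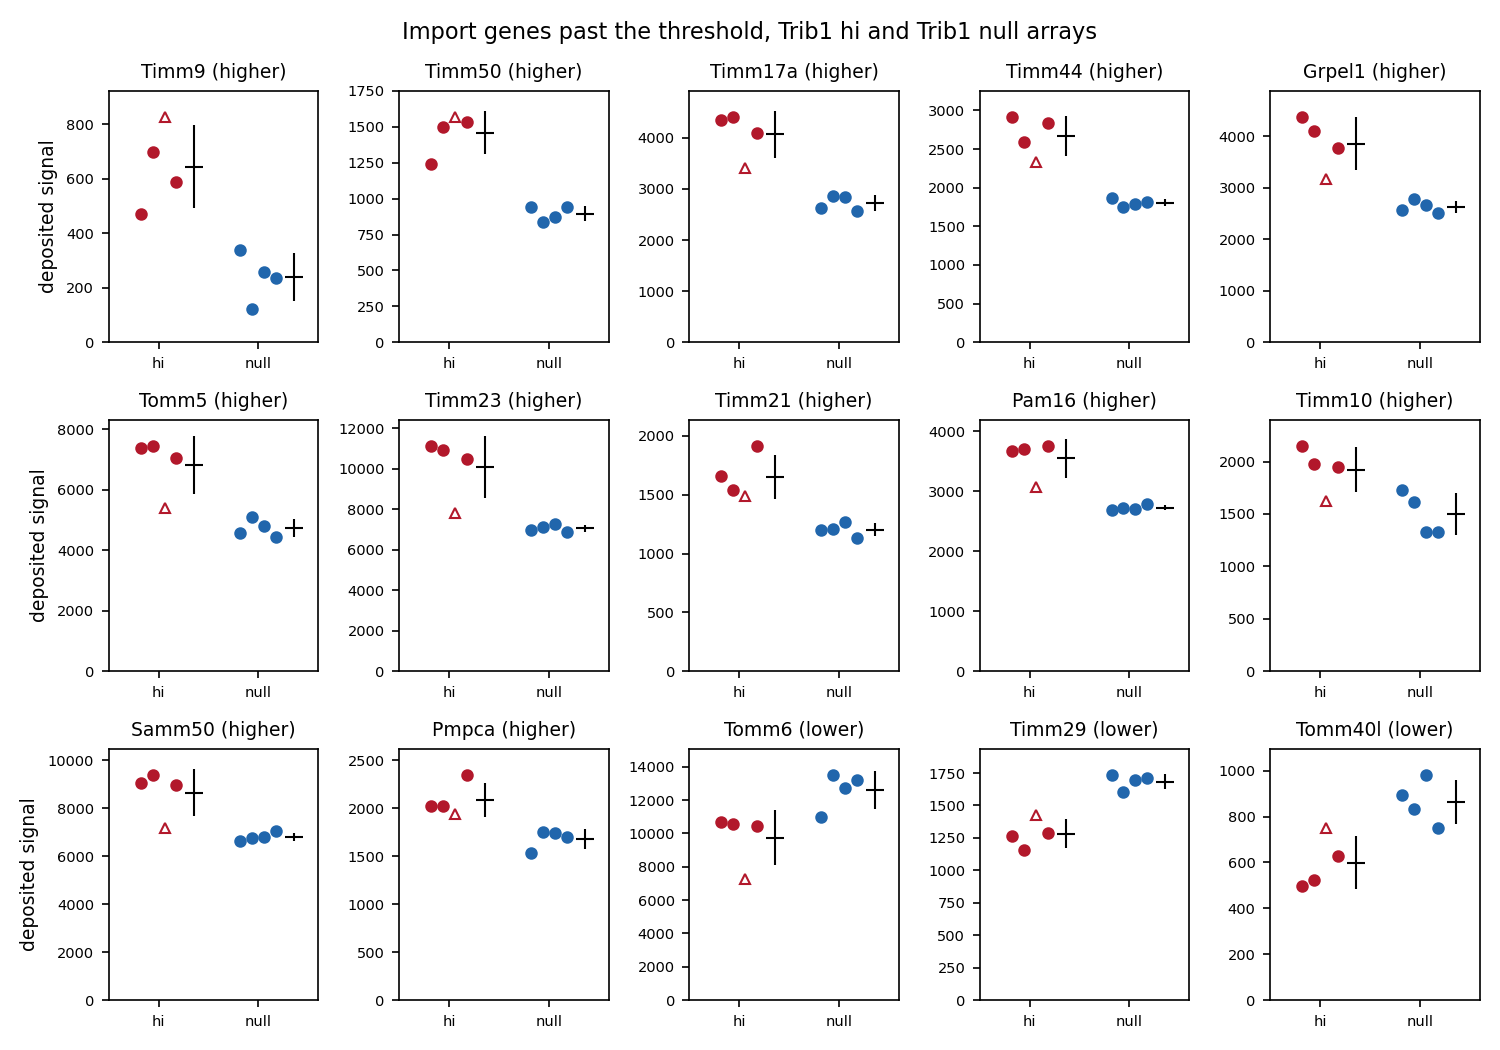
Deposited signal (linear axis from 0) of the 15 members past the threshold, with Trib1 hi arrays 1 to 4 in red, Trib1 hi 3 as an open triangle, Trib1 null arrays 1 to 4 in blue, and black bars for mean ± SD. The groups are separate in 13 of the 15 panels and overlap for Timm10 and Tomm40l; on equal array medians the higher genes other than Timm9 would turn.

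The import motor had 3 of 5 members higher and none lower, with a median log2 difference of 0.38. Timm44, which anchors mitochondrial Hsp70 to the channel, read 2909, 2593, 2336 and 2841 on arrays labelled Trib1 hi and 1861, 1756, 1784 and 1809 on arrays labelled Trib1 null. It was 1.48-fold higher without overlap (log2 difference 0.56 ± 0.10 SE, limma adjusted p = 1.82e-05). Its 2 other probe sets differed by 0.54 (adjusted p = 0.0366) and by -0.03 (adjusted p = 0.925), the second one open to cross-hybridisation by its name, and the average of all 3 probe sets was not called (adjusted p = 0.0637). The probe sets that stand for Pam16, Samm50, Tomm6, Timm17b, Pmpcb and the dim Timm8a2 are likewise open to cross-hybridisation by their names. Grpel1, the nucleotide exchange factor that resets Hsp70, read 4367, 4105, 3174 and 3778 on arrays labelled Trib1 hi and 2570.4, 2783, 2665 and 2512 on arrays labelled Trib1 null. This was 1.46-fold higher, again with no overlap (limma adjusted p = 4.24e-05). Pam16, the J-like subunit that in yeast holds and restrains the J protein Pam18, read 3675, 3713, 3066 and 3749.6 on arrays labelled Trib1 hi and 2697, 2716, 2711 and 2788 on arrays labelled Trib1 null, 1.30-fold higher (limma adjusted p = 0.00162). The groups were separate, and the call was lost when the variance was not allowed to vary with the mean (adjusted p = 0.0511).

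Grpel2, the second exchange factor, lay just outside the threshold. It read 1272, 998, 1178 and 1014 on arrays labelled Trib1 hi and 924, 834, 917 and 883 on arrays labelled Trib1 null, which did not overlap, with a log2 difference of 0.32 (95% interval 0.06 to 0.58, limma adjusted p = 0.0604). The within-array ratio of Grpel1 to Grpel2 differed between groups by 0.22 on the log2 scale (exact two-sided permutation p = 0.229, also after adjustment over the 2 pairs). Dnajc19, the mammalian relative of Pam18, read 3229.8, 3404, 2731 and 3270.1 on arrays labelled Trib1 hi and 2935, 3119.9, 3028 and 2858 on arrays labelled Trib1 null. These overlapped, with a log2 difference of 0.08 (95% interval -0.11 to 0.27, limma adjusted p = 0.622). Without Trib1 hi 3, Grpel2 and Dnajc19 were both called higher (limma adjusted p = 0.0371 and 0.0270).

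The outer membrane channel moved both ways, with 2 of 5 members higher, 2 lower and a median log2 difference of -0.06. Tomm5, a small subunit of the TOM channel, read 7386, 7433, 5408 and 7060.1 on arrays labelled Trib1 hi and 4564, 5096, 4815 and 4441 on arrays labelled Trib1 null. It was 1.43-fold higher without overlap (log2 difference 0.52 ± 0.10 SE, limma adjusted p = 0.000177). Samm50, the core of the SAM complex, read 9064, 9375, 7196 and 8975 on arrays labelled Trib1 hi and 6621, 6760.0, 6795 and 7064 on arrays labelled Trib1 null. It was 1.26-fold higher without overlap (limma adjusted p = 0.0127), and its second bright probe set differed by 0.35 on the log2 scale (adjusted p = 0.0111). The call was lost without Trib1 hi 2 (adjusted p = 0.0564), without the variance trend (0.0964) and when all 3 of its probe sets were averaged (0.139), the third reading at most 108.

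Tomm6, another small TOM subunit, went the other way. It read 10712, 10588, 7254 and 10429 on arrays labelled Trib1 hi and 10991, 13476, 12749 and 13224 on arrays labelled Trib1 null, 1.31-fold lower (log2 difference -0.39 ± 0.13 SE, limma adjusted p = 0.0200). The groups were separate by a narrow margin, between Trib1 hi 1 and Trib1 null 1. The call was lost without Trib1 null 2 or 4 (adjusted p = 0.0592 and 0.0562) and in 3 other settings, with an adjusted p of up to 0.160. Its second probe set read 659, 795, 947 and 863 on arrays labelled Trib1 hi and 2175, 1741, 1806 and 1554 on arrays labelled Trib1 null, a wider separation (-1.16, adjusted p = 1.58e-07). Tomm6 lies on chromosome 17, where 44.9% of 633 tested genes were called lower and 2.84% higher (55% and 9.16% after quantile normalization); the part of this in the Tomm6 difference was not tested.

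Tomm40l, a paralogue of the channel-forming subunit Tomm40, read 496, 524, 752 and 627 on arrays labelled Trib1 hi and 892, 835, 979 and 750.3 on arrays labelled Trib1 null. It was at least 1.45-fold lower (log2 difference -0.54 ± 0.17 SE, limma adjusted p = 0.0144), with Trib1 hi 3 and Trib1 null 4 meeting at the same level. The call was lost after quantile normalization (adjusted p = 0.0637), without Trib1 hi 1 or Trib1 null 3 (0.0733 and 0.0800), when its 2 probe sets were averaged (0.860), and in 2 other settings. Tomm7, the remaining small TOM subunit, averaged 5519.9 ± 757 on arrays labelled Trib1 hi and 5729.6 ± 236 on arrays labelled Trib1 null (SD, n = 4 each). The groups overlapped (log2 difference -0.06, 95% interval -0.27 to 0.15, limma adjusted p = 0.734), and the sign of this small difference turned to 0.04 without Trib1 hi 3. Tomm40 was not analysed here.

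None of the 5 import receptors passed the threshold by limma on the deposited values of the probe sets used, where 2 had an unadjusted p under 0.05, both higher, and 4 were called higher after quantile normalization. Their median log2 difference, with the dim Tomm20l counted, was 0.21. Tomm20, the presequence receptor, read 26766, 25764, 17739 and 25614 on arrays labelled Trib1 hi and 17744, 21048, 19772 and 20048 on arrays labelled Trib1 null. The overlap came from Trib1 hi 3 alone, which read lower than every Trib1 null array (log2 difference 0.27, 95% interval -0.06 to 0.60, limma adjusted p = 0.242). Its second bright probe set read 16419, 15721, 10165 and 15040.2 on arrays labelled Trib1 hi and 9947, 12131, 10804 and 11114 on arrays labelled Trib1 null, and passed on the deposited values, again with overlap through Trib1 hi 3 (0.36, adjusted p = 0.0392). Tomm22, which joins the receptors to the channel, read 5225, 5099, 3733 and 4852 on arrays labelled Trib1 hi and 4049, 4151, 4035 and 3982 on arrays labelled Trib1 null, and Trib1 hi 3 was again below all arrays labelled Trib1 null. Tomm70a, the receptor for carriers and other internal-signal proteins, read 3459, 3462, 2923 and 3508 on arrays labelled Trib1 hi and 3022, 2936, 2705 and 3005 on arrays labelled Trib1 null. The limma adjusted p was 0.124 for Tomm22 and 0.125 for Tomm70a. Without Trib1 hi 3 all 3 were called higher (adjusted p = 0.00111 for Tomm20, 0.000296 for Tomm22 and 0.00265 for Tomm70a). Tomm34, a cytosolic co-chaperone of precursors, averaged 1637 ± 156 on arrays labelled Trib1 hi and 1416 ± 106 on arrays labelled Trib1 null (SD, n = 4 each; limma adjusted p = 0.163). Tomm20l, a Tomm20-like gene, read at most 74.8 on any array, and its level and difference could not be measured at this signal.

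The small TIM chaperones, which shield hydrophobic precursors between the membranes, had 2 of 4 tested members higher and none lower. Timm9 read 469.7, 698, 825 and 587 on arrays labelled Trib1 hi and 339, 123, 257 and 237 on arrays labelled Trib1 null. The groups did not overlap, but all Trib1 null arrays and Trib1 hi 1 were under 500, so no fold is given (limma adjusted p = 0.000408). The size of its fitted difference depended on how low signals were treated: 1.48 on the log2 scale as tested, 1.15 with a pseudocount of 100, 0.36 with a floor of 500 and 2.78 after quantile normalization. Averaging with its second probe set, which read at most 66.8, ended the call (adjusted p = 0.266). Timm10, the partner of Timm9 in the hexameric chaperone, read 2144, 1981, 1624 and 1947 on arrays labelled Trib1 hi and 1728, 1611, 1328 and 1326 on arrays labelled Trib1 null. The groups overlapped through Trib1 hi 3, and the fold was 1.29 (limma adjusted p = 0.0117). Timm10 lost its call without Trib1 hi 1 or Trib1 null 3 (adjusted p = 0.0676 and 0.0509) and in 4 other settings, with an adjusted p of up to 0.140.

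Timm8b, the subunit related to the deafness-dystonia gene Timm8a1, averaged 2925 ± 307 on arrays labelled Trib1 hi and 3269 ± 123 on arrays labelled Trib1 null (SD, n = 4 each; limma adjusted p = 0.210). Timm10b, which holds small TIM chaperones at the TIM22 complex, averaged 4296 ± 586 on arrays labelled Trib1 hi and 4882 ± 214 on arrays labelled Trib1 null (SD, n = 4 each; limma adjusted p = 0.159). Both overlapped between groups on the deposited values and were called lower after quantile normalization. A second probe set of Timm10b, open to cross-hybridisation by its name, was lower on the deposited values (-0.30, adjusted p = 0.0238). Timm8a2 read at most 1.69 on any array and was not tested, and Timm8a1 and Timm13 were not analysed here.

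In the TIM22 complex, the carrier translocase, Timm29, a subunit found in animals, was lower on arrays labelled Trib1 hi and Timm22, the channel itself, did not pass. Timm29 read 1265, 1155, 1424 and 1286 on arrays labelled Trib1 hi and 1731, 1603, 1692 and 1709.7 on arrays labelled Trib1 null. It was 1.32-fold lower without overlap (log2 difference -0.40 ± 0.11 SE, limma adjusted p = 0.00360), a call lost when its 2 probe sets were averaged (adjusted p = 0.0740). The averaged difference kept its direction (-1.43). The second probe set, under 500 on all arrays and with overlapping groups, was lower as well (-2.46, adjusted p = 0.0299). Timm22 read 1314, 1272, 1519 and 1368 on arrays labelled Trib1 hi and 1331, 1216, 1328 and 1185 on arrays labelled Trib1 null, with a log2 difference of 0.11 (95% interval -0.11 to 0.34, limma adjusted p = 0.534).

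The processing peptidase, which removes presequences in the matrix, was read through both of its subunits. Pmpca, the subunit that recognises the presequence, read 2030.2, 2024, 1939 and 2344 on arrays labelled Trib1 hi and 1533, 1752, 1741 and 1705 on arrays labelled Trib1 null. It was 1.24-fold higher without overlap (limma adjusted p = 0.0164). The call was lost without Trib1 hi 4 or Trib1 null 1 (adjusted p = 0.0976 and 0.0814), without the variance trend (0.100), and when its 2 probe sets were averaged (0.918). The second one, at 407 to 782, lay in the opposite direction without passing (-0.24, adjusted p = 0.496). Pmpcb, the catalytic subunit, read 1405, 1454, 1409 and 1479.9 on arrays labelled Trib1 hi and 1193, 1211, 1244 and 1274 on arrays labelled Trib1 null. These groups did not overlap either, with a fold of 1.17 and a log2 difference of 0.22 that missed the threshold (limma adjusted p = 0.119); it passed without Trib1 hi 3 (0.00513).

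The factors that work with this machinery under other gene names moved both ways, with 3 of 17 higher and 3 lower. These shares, 17.6% each, lay near those of all tested genes (11.1% and 19.7%). They lay below those of genes with a mean signal over 500 (24.2% and 31.1%). Hspa9, the mitochondrial Hsp70 (mortalin) that Timm44 anchors and Grpel1 resets, read 10571, 10639.6, 7551 and 10111 on arrays labelled Trib1 hi and 3294, 3471, 3515 and 3579 on arrays labelled Trib1 null. The groups were far apart, at 2.78-fold (log2 difference 1.47 ± 0.11 SE, limma adjusted p = 4.54e-13). Chchd4, the oxidoreductase that folds cysteine-rich proteins between the membranes, averaged 4660.3 ± 584 on arrays labelled Trib1 hi and 2616 ± 131 on arrays labelled Trib1 null (SD, n = 4 each), 1.77-fold higher (limma adjusted p = 2.81e-08). Dnajc15, a paralogue of Dnajc19, was 1.56-fold higher (limma adjusted p = 2.68e-06), whereas Dnajc19 itself did not pass. Mtch1, an outer membrane protein of the carrier family, averaged 1029.6 ± 102 on arrays labelled Trib1 hi and 1906 ± 104 on arrays labelled Trib1 null (SD, n = 4 each), 1.86-fold lower (limma adjusted p = 6.60e-08). Mtx2, a metaxin that works with Samm50, was 1.52-fold lower (limma adjusted p = 7.74e-06). Romo1, a small inner membrane protein tied to TIM23, had overlapping groups and an adjusted p of 0.0494, which ranged up to 0.234 over the other settings. Dnajc15, Mtx2 and Romo1 were picked after their values were seen.

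Beside other mitochondrial lists, the share of members called higher, 42.9%, was close to that of the 73 mitochondrial ribosomal proteins, of which 31 were higher and 7 lower (42.5% and 9.59%; median log2 difference 0.27), or 50 and 9 after quantile normalization. Of 76 subunits of the respiratory chain and ATP synthase, 11 were higher and 15 lower (14.5% and 19.7%; median 0.01), counts that were 15 and 37 after quantile normalization. Of 37 mitochondrial carriers, the clients of TIM22, 5 were higher and 6 lower (13.5% and 16.2%, median -0.29). After quantile normalization 14 were higher and 9 lower (median -0.034). Among all tested genes the shares were 11.1% and 19.7%, or 27.4% and 27.3% after quantile normalization. On the deposited values the shares of the respiratory chain and of the carriers lay near those of all tested genes. They lay below the 24.2% higher and 31.1% lower among genes with a mean signal over 500. After quantile normalization the 37 lower calls of the respiratory chain were a larger share than the 27.3% of all tested genes. Its 15 higher calls were a smaller share than the 27.4%. These shares describe the lists and were not tested against each other.

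Among 15 chaperones and proteases of the matrix and inner membrane 7 were higher and 3 lower (46.7% and 20%, with 11.1% and 19.7% over all tested genes). Hspe1, the co-chaperonin of Hsp60, averaged 9112 ± 1394 on arrays labelled Trib1 hi and 4735 ± 431 on arrays labelled Trib1 null (SD, n = 4 each), 1.91-fold higher (limma adjusted p = 3.22e-08). Dnaja3, a J protein of mitochondrial Hsp70, was 1.83-fold higher (limma adjusted p = 6.72e-08, up to 0.108 over the other settings). Oma1, a stress-activated protease, averaged 308 ± 188 on arrays labelled Trib1 hi and 679.8 ± 39.4 on arrays labelled Trib1 null and was at least 1.30-fold lower (limma adjusted p = 0.000699, up to 0.0591 over the other settings). Krebs cycle enzymes had 4 of 16 higher and 1 lower, twin CX9C proteins, which Chchd4 folds, 3 of 13 and 1, and the MICOS complex of the cristae 2 of 8 and 2. Their shares of higher calls, 23.1% to 25%, were close to the 24.2% of genes with a mean signal over 500.

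Of 12 regulators of mitochondrial gene expression 4 were higher and none lower, with a median log2 difference of 0.0021. After quantile normalization 7 were higher and 1 lower, with a median of 0.27 (27.4% and 27.3% of all tested genes). Of 12 genes of the integrated stress response 6 were higher and 3 lower. On the deposited values the shares of higher calls in the 2 lists were 33.3% and 50%, beside 11.1% of all tested genes and 24.2% of those with a mean signal over 500. Pprc1, a coactivator of the PGC-1 family, averaged 987 ± 173 on arrays labelled Trib1 hi and 321 ± 76.8 on arrays labelled Trib1 null (SD, n = 4 each), at least 1.95-fold higher (limma adjusted p = 2.54e-07). Gabpb1, a subunit of the GABP factor that binds the ETS motif, averaged 1162 ± 62.9 on arrays labelled Trib1 hi and 585 ± 75 on arrays labelled Trib1 null and was at least 1.98-fold higher (limma adjusted p = 1.91e-06, or 0.580 with its probe sets averaged). Tfam, which packages and transcribes mitochondrial DNA, was 1.48-fold higher (limma adjusted p = 4.89e-05, or 0.777 with its probe sets averaged).

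**Figure D4:**
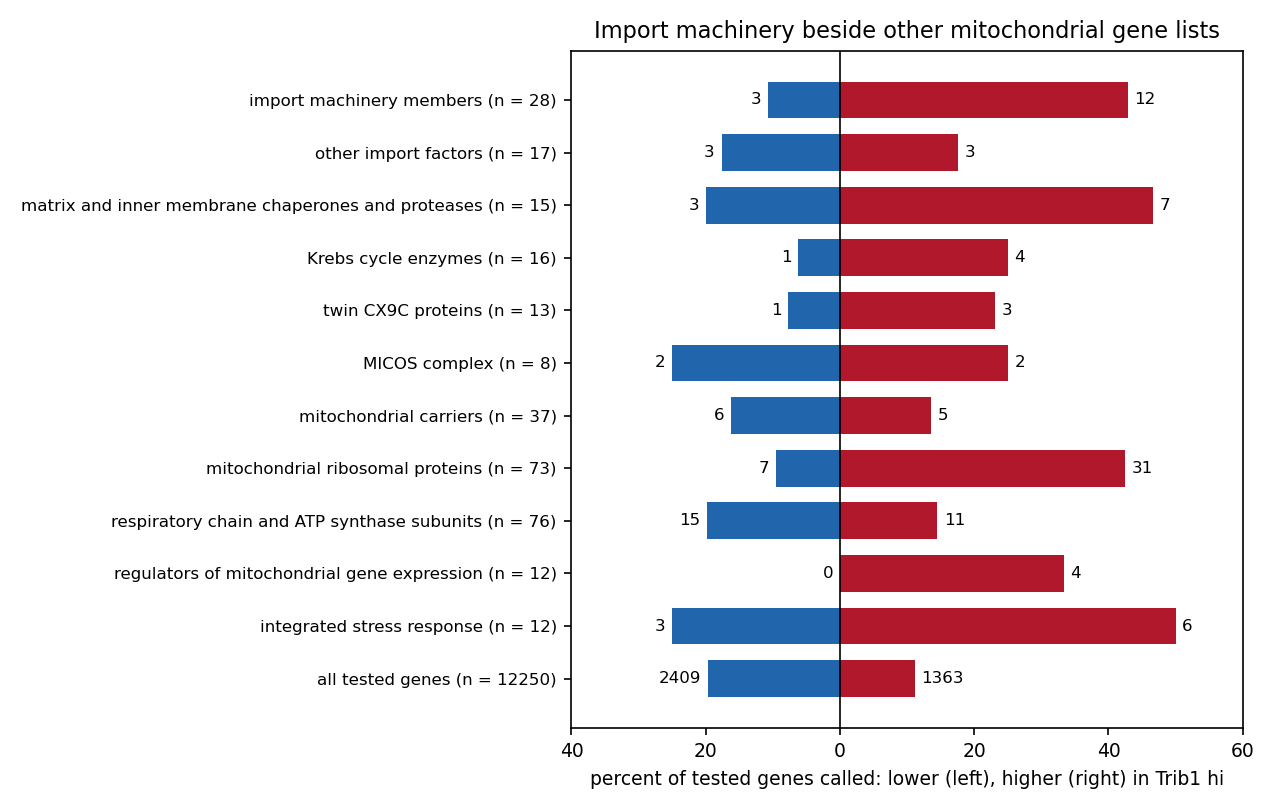
Percent of the tested genes of each list called higher (right, red) or lower (left, blue) on arrays labelled Trib1 hi at a limma adjusted p under 0.05 on the deposited scaling, with the number of genes at each bar and the number tested beside each name. The import genes, 12 higher and 3 lower of 28, stand beside the mitochondrial ribosomal proteins, 31 and 7 of 73, and all tested genes, 1363 and 2409 of 12250; with all arrays at equal medians none of the import genes was called.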

How the data were processed

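Total RNA of 8 samples was measured on Affymetrix mouse arrays, 4 per group, which limits the precision. The authors deposited 1 table of linear signal intensity values for 45141 probe sets; per the submitters' processing notes they were made with MAS5, whose version and scaling the sources used here do not state. Detection calls were not used. The authors' genome build is likewise unstated; promoter sequences are RefSeq's.

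Groups came from the titles. Of 28898 probe sets with exactly 1 annotated symbol, the one with the highest mean over the arrays stood for each of 17097 genes. The log2 of intensity plus a pseudocount of 2.71 (the 25th percentile of the table) was compared for the 12250 genes whose mean log2 exceeded 3.01, the 40th percentile among probe sets, with limma 3.58.1 in R 4.3.3 (lmFit and eBayes with a variance trend), Benjamini-Hochberg adjustment and a threshold of 0.05. For dim genes the size of such log2 differences is unreliable. That of Tomm20l was 1.03 on all arrays and 0.12 without Trib1 hi 3. Folds are ratios of geometric means after raising signals under 500 to that level, which was picked with the data in view: "at least" marks a group partly at the limit, and no fold is given where both are. An "adjusted p" without a tool is limma's. Test scripts were checked on simulated data.

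The members and lists were chosen with earlier results of these data known. Every member is named. Values on every array are given for up to 15 called members with the largest differences, all members called lower and those near the threshold; for other lists, up to 3 called members with the largest differences and no overlap.

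Alternatives were quantile normalization, equal array medians, pseudocounts of 1 and 100, a floor of 500, no filter, the mean of a gene's probe sets, every probe set tested, no shared variance, no variance trend, the replicate number as a block, and leaving out each array; quantile normalization without Trib1 hi 3 was added after seeing the data.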

Additional observations from a re-analysis of the deposited data

Results flagged for a closer look

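Of 58 groups of 4 arrays, one per member and group, 6 held an array far from the other 3 by Dixon's criterion, where chance gives about 1 in 20. Trib1 hi 3 was the array in 5 of them. It was low for Pam16 (3066, against 3675 to 3750 on the other Trib1 hi arrays), Tomm20 (17739, against 25614 to 26766), Tomm6 (7254, against 10429 to 10712) and Tomm70a (2923, against 3459 to 3508). It was high for the dim Tomm20l (74.8, against 3.52 to 3.62). On the same array the 95th percentile of all signals was the lowest of the 8, 3724, and the median the highest, 68.3; the part of this in the 5 values was not tested. The remaining such value was Tomm34 on Trib1 null 4 (1576, against 1352 to 1374 on the other Trib1 null arrays).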

How the results depend on the processing

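The count of members called higher, 12, was 19 after quantile normalization, 0 with equal array medians and 6 with each gene's probe sets averaged; in the other settings it was 8 to 14, and 11 to 18 when arrays were left out in turn. The count called lower, 3, was 6 after quantile normalization, with or without Trib1 hi 3, 0 with equal medians, 1 without shared variance, 1 without the variance trend, and 2 to 3 when arrays were left out. The members' median log2 difference was 0.24 to 0.30 when arrays were left out and reversed only with equal medians, to -0.44. The median of all tested genes moved more, between -0.32 (without Trib1 hi 3) and 0.15 (without Trib1 null 1), so that the members' median lay 0.62 and 0.095 above it. The lists of other mitochondrial and stress genes held 275 genes, 75 called higher and 40 lower. These counts were 121 and 72 after quantile normalization, 118 and 71 when Trib1 hi 3 was also left out, 6 and 21 with equal medians, and 40 and 26 with probe sets averaged. Those called lower were 22 without shared variance and 16 without the trend. Leaving out arrays gave 65 to 125 higher and 33 to 65 lower, both highest without Trib1 hi 3.

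Equal medians lowered the difference of every gene by the same amount and reversed 19 members: Timm50 (-0.028), Timm17a (-0.15), Timm44 (-0.17), Grpel1 (-0.19), Tomm5 (-0.21), Timm23 (-0.23), Timm21 (-0.28), Pam16 (-0.35), Timm10 (-0.36), Samm50 (-0.39), Grpel2 (-0.41), Pmpca (-0.42), Tomm20 (-0.46), Pmpcb (-0.50), Tomm22 (-0.52), Tomm34 (-0.52), Tomm70a (-0.53), Timm22 (-0.61) and Dnajc19 (-0.65). Averaged probe sets reversed Grpel2 (-0.25), Tomm70a (-0.13) and Tomm7 (0.065), leaving out Trib1 hi 3 reversed Tomm7 (-0.113 to 0.040 over the arrays left out), and quantile normalization without that array reversed Tomm20l (-0.000245); the cause was not tested. Only Grpel1, Timm17a, Timm21, Timm23 and Tomm5 kept their call in all 18 planned settings other than equal medians.

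The deviations of same-numbered arrays from their group means correlated at r = -0.51, 0.49, -0.29 and 0.37. Trib1 hi 3 and Trib1 null 1, which differ in number, correlated at 0.65. Deviations cancel within a group, so these correlations depend on one another and cannot decide whether the numbers pair samples. With the replicate number as a block the counts were 12 higher and 3 lower, and no member changed its call. Signals near background limit Tomm20l, Timm8a2 and Timm9 most.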
